A study of Homo sapiens with 6 samples.

Results

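This account covers the LINC genes of irradiated human fibroblasts, the long noncoding RNA genes whose symbol is LINC followed by a number. A gene was included where its counts summed to at least 60 over the 6 libraries, whatever their distribution between the groups. Of 2234 LINC rows among the 61806 genes of the deposited table, 198 met this minimum and 2036 did not. The cells were HFF, a culture of human foreskin fibroblasts from a cell bank, labelled wild type. All were irradiated with ultraviolet B (UVB, 40 mJ/cm2), the part of sunlight absorbed by DNA itself, and cultured for 48 h afterwards. After irradiation, cells of the UVB group (3 libraries) received vehicle. Those of the UVB + sauchinone group (also 3) received 10 µM sauchinone, a lignan from plants. The protocol also describes a version with sauchinone for 4 h before irradiation, and the labels do not say which version gave these libraries. Unirradiated cells were not analysed here, so the comparison asks what sauchinone changed in irradiated cells and says nothing of the response to UVB itself. Nothing in the labels says that replicates came from separate cultures, so p-values rest on a spread that may be technical only.

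LINC symbols are given to genes of long intergenic noncoding RNAs that have no better founded name. Such RNAs are transcribed by RNA polymerase II, are mostly spliced and polyadenylated like messenger RNAs, and are usually far less abundant than those. Some act in the nucleus on the genes around them, others act on chromatin, proteins or RNAs elsewhere, and for many no function is known.

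Libraries held 20984851 to 23076388 counts, with 24223 to 25259 genes detected in each. Levels are given as CPM, counts scaled to a common library size. A count of 3, used here as the floor for counting error, was worth 0.130 to 0.143 CPM. Spearman correlations across genes were 0.991 to 0.994 between libraries of a group and 0.964 to 0.975 between groups. The cells carried 10 of 10 fibroblast markers at 1 CPM or more. Their summed level was 19312 to 21065 CPM in the UVB group and 13577 to 13878 CPM with sauchinone, and 9 of the 10 were lower. Of 25 markers of keratinocytes, melanocytes, endothelial cells and leukocytes, 4 reached 1 CPM and 8, KRT5 and CD3E among them, had no count in any library. The summed keratinocyte markers reached 11.4 to 12.0 CPM in the UVB group and 13.4 to 14.1 CPM with sauchinone, nearly all of it KRT10, and the leukocyte markers 3.13 to 4.03 and 3.73 to 4.06 CPM. Summed melanocyte markers were 55.9 to 64.2 CPM against 43.4 to 44.2 CPM, nearly all of it MITF, and endothelial markers were 6.72 to 8.09 CPM against 2.38 to 3.30 CPM, nearly all of it TEK. The part of these shifts in the values of the LINC genes was not tested. In bulk RNA, fewer cells of a type and less RNA per cell cannot be told apart.

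More LINC genes were lower than higher with sauchinone. Of the 198 genes, 192 had enough counts for the test, the quasi-likelihood method of edgeR, with p-values adjusted by Benjamini-Hochberg across the 15704 genes that were tested. At an adjusted p under 0.05, 43 (22.4%) were lower with sauchinone, 20 (10.4%) were higher, and 129 did not pass. Over all genes tested, 24.9% were lower and 24.7% were higher. In total 63 LINC genes (32.8%) passed, against 49.6% of all genes. The median log2 fold change of the LINC genes was −0.07 (quartiles −0.59 and 0.34), and that of all genes tested was 0.01. Among changes of at least 2-fold that passed, 27 LINC genes were lower and 8 were higher, where the shares over all genes were 7.31% lower and 4.25% higher. The CPM values of the groups did not overlap for 53 LINC genes that were lower and 28 that were higher, against 28.5% and 28.6% of all genes. The count of higher genes was 13 in place of 20 without UVB + sauchinone replicate 3, where 21.3% of all genes were higher. The median was 0.04 over the 69 tested LINC genes that overlap no other gene row, of which 15 were lower and 10 higher.

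The LINC genes as a group held a small share of the counts. Their summed counts made up 0.0883%, 0.0829% and 0.0915% of the UVB libraries and 0.0824%, 0.0799% and 0.0825% of the UVB + sauchinone libraries. The lowest UVB library lay just above the highest sauchinone library, with means of 0.0876% ± 0.00434 and 0.0816% ± 0.00150 (SD, n = 3 each). The 5 most counted genes held 20.9% of these counts and the 20 most counted held 52.3%. No LINC gene included here was without counts in a whole group, and the only zero among their counts was LINC02029 in UVB replicate 3.

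Most of these RNAs were scarce. Mean levels over the 6 libraries ran from 0.447 to 42.4 CPM, with 68 of the tested genes under 1 CPM and 26 at 10 CPM or more. The median level was 1.48 CPM, against 15.6 CPM over all genes tested. Per length, 149 of the tested LINC genes had a mean FPKM (the count scaled by exonic length and library size) under 1, and 6 reached 5. Low counts widened the error: the median standard error of the log2 fold change was 0.32 for LINC genes and 0.12 for all genes.

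Set beside genes of like abundance, the share of LINC genes that passed lay near that of all genes at each level. Under 1 CPM, 17.6% of 68 LINC genes passed, against 21.4% of all genes at that level. From 1 to 2 CPM it was 29.5% of 44, against 27.8%. From 2 to 5 CPM it was 36.8% of 38, against 41.4%. These shares rose with level in both sets. From 5 to 10 CPM 8 of 16 LINC genes passed, against 54.5%, and at 10 CPM or more 61.5% of 26, against 60.1%. More LINC genes were lower than higher in each of the 5 levels, as were all genes in every level but that of 10 CPM or more. At 1 to 2 CPM 11 of 44 LINC genes were lower and 2 (4.55%) higher, against 16.2% and 11.5% of all genes. At 10 CPM or more 9 were lower and 7 higher (34.6% and 26.9%), against 29.2% and 31.0% of all genes. The difference between the sets was not tested.

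**Figure D1:**
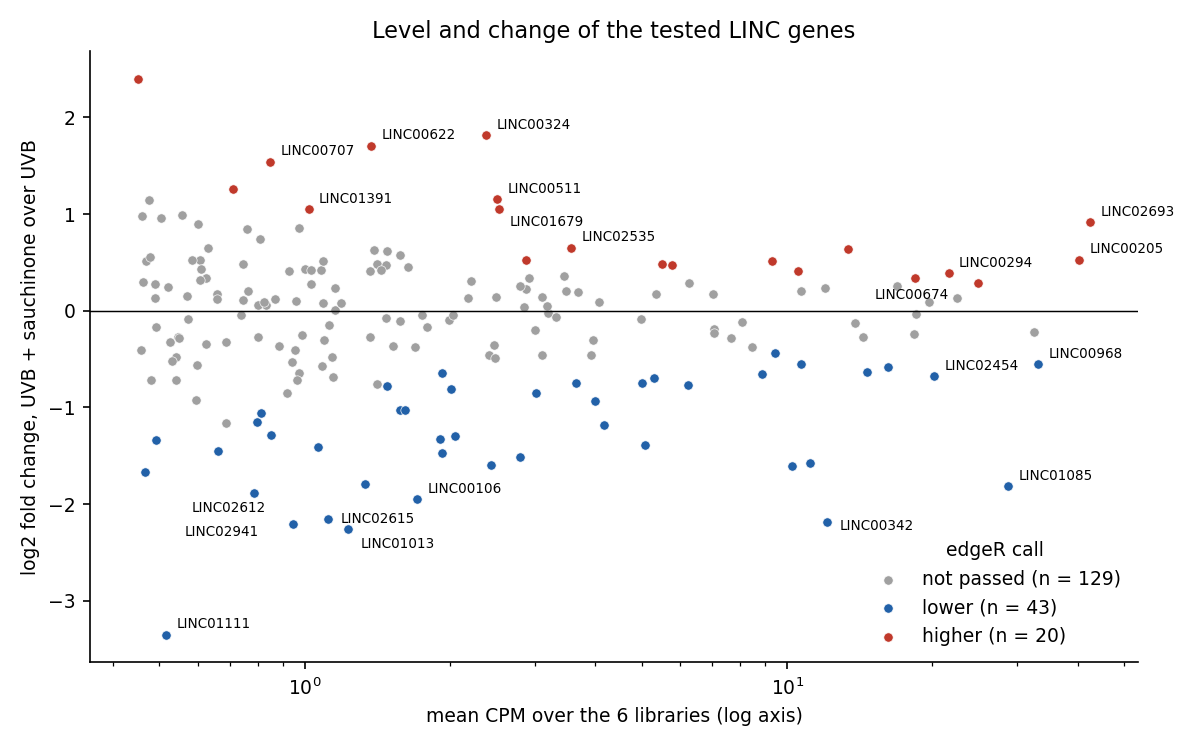
Each point is 1 of the 192 tested LINC genes, with the mean CPM over the 6 libraries on a log axis and the log2 fold change with sauchinone. Blue points (43) were lower and red points (20) were higher at an adjusted p under 0.05, grey points (129) did not pass, and the spread of the fold changes is widest at the left, where counts are low.

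Genomic span, the length from a gene's start to its end, also went with direction. Genes were divided into 5 equal groups by span, with limits at 6.93, 18.9, 40.0 and 88.7 kb. Among the 32 LINC genes of the longest group, 13 (40.6%) were lower and 3 higher, where 58.5% of all genes in that group were lower and 7.99% higher. Among the 59 of the shortest group, 9 (15.3%) were lower and 8 (13.6%) higher, where 8.12% of all genes were lower and 29.4% higher. The 34 of the middle group had 12 (35.3%) lower and 2 (5.88%) higher, where 17.6% of all genes were lower and 29.6% higher. In the longest group, lower calls outnumbered higher calls in both sets. In the shortest, higher calls outnumbered lower calls over all genes and were about level with them among LINC genes. The difference between the sets was not tested. The LINC genes had a median span of 18.1 kb, against 28.0 kb for all genes tested. With the trend of counts with span removed, 51 LINC genes were lower and 16 higher, against 22.0% and 24.3% of all genes.

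**Figure D2:**
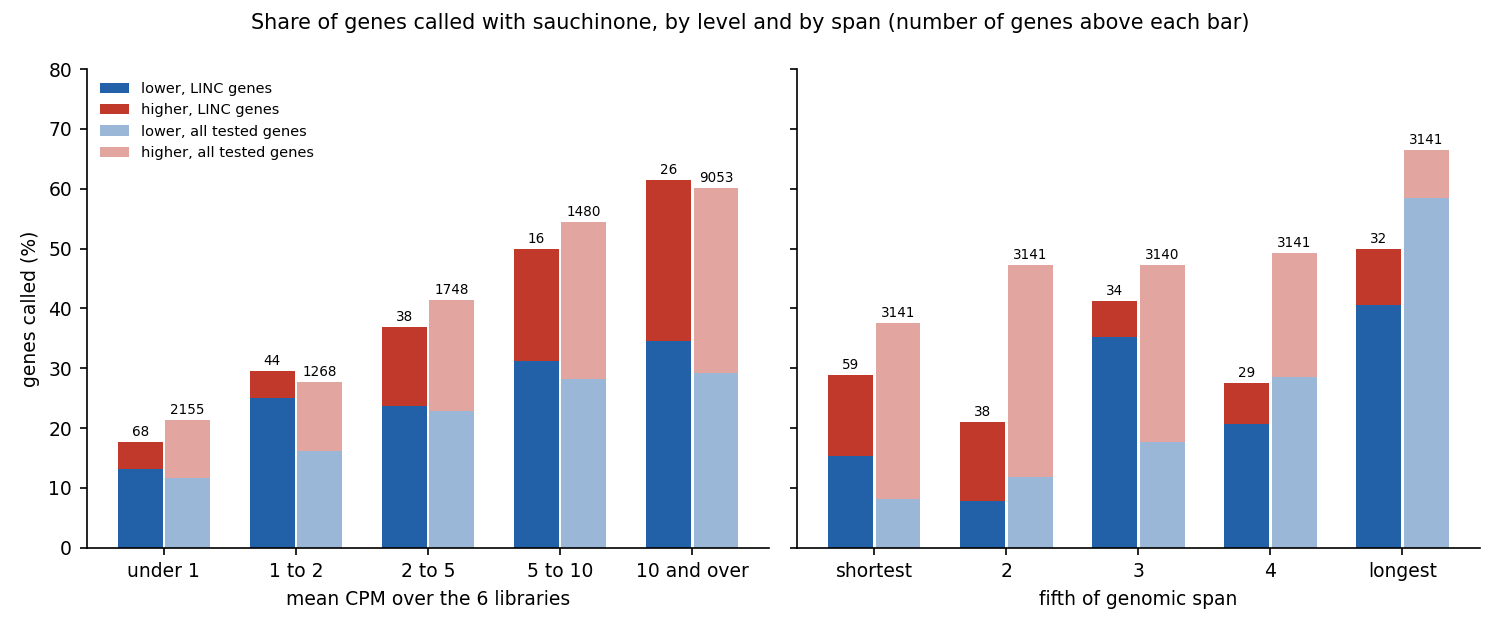
Bars give the percentage of genes lower (blue) and higher (red) with sauchinone at an adjusted p under 0.05, in dark colours for LINC genes and pale colours for all genes tested, by mean CPM (left) and by group of genomic span (right), with the number of genes above each bar. The LINC bars reach 61.5% at 10 CPM or more, and the blue part reaches 40.6% in the longest group.

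LINC01085 was the most abundant of these RNAs per length and fell. The gene (chr4:14111968-14140052, plus strand, GRCh38; a transcribed processed pseudogene in GENCODE 29) had 16.6, 15.3 and 19.2 FPKM in the UVB libraries and 4.43, 5.13 and 5.43 FPKM with sauchinone. All 3 sauchinone libraries lay far below the UVB libraries. The level fell from 17.0 ± 1.97 to 5.00 ± 0.513 FPKM (SD, n = 3 each), a log2 fold change of −1.81 ± 0.11 (SE; adjusted p = 1.3e-11, edgeR), or 3.51-fold on the scale of the fit. No 50-base stretch of its transcripts occurs in another GENCODE 29 gene, though 1 other row overlaps it on the same strand.

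LINC00342 (chr2:95807052-95835003, minus strand) fell from a high level too. Its CPM was 19.3, 18.3 and 22.0 in the UVB libraries and 4.02, 4.54 and 4.54 with sauchinone. The groups were separated by a wide gap, and the log2 fold change was −2.18 ± 0.14 (adjusted p = 1.3e-11, edgeR). Of its 50-base words, 28.4% also occur in other genes, most often in LINC02969 on the same chromosome, so counts can be divided between such genes. LINC02969 itself, named here because of that sharing after its values were seen, went from 2.83 ± 0.425 to 1.02 ± 0.226 CPM (log2 fold change −1.47 ± 0.28, adjusted p = 0.00013), and 56.1% of its words occur in other genes.

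The other large falls were in RNAs near or under 3 CPM. LINC01111 (chr8:76406654-76524356) had 27, 18 and 16 counts in the UVB libraries and 2 in each sauchinone library, under the floor of 3 counts. The summed counts of 61 and 6 differed 10.7-fold, with an exact 95% interval of 4.65 to 30.4 that covers counting error only (fitted log2 fold change −3.35 ± 0.57, adjusted p = 4.3e-05). LINC01013 (chr6:132131888-132169374) had 33, 58 and 42 counts against 4, 17 and 8 (log2 fold change −2.26 ± 0.41, adjusted p = 8.9e-05). The groups did not overlap for either gene. LINC02941 (chr6:139976352-140093724) had 23, 40 and 39 counts against 6, 12 and 5 (−2.20 ± 0.42, adjusted p = 0.00014). LINC02615 (chr4:128292751-128519398), a gene that spans 227 kb, had 38, 42 and 39 counts against 10, 3 and 15 (−2.15 ± 0.41, adjusted p = 0.00014). In both, every UVB library exceeded every sauchinone library. LINC00106 (chrX:1396427-1399402), in the pseudoautosomal region, had 47, 53 and 78 counts against 24, 13 and 11 (−1.95 ± 0.33, adjusted p = 3.8e-05). LINC02612 (chr2:150612381-150635818) had 16, 17 and 49 counts against 2, 11 and 10 (−1.88 ± 0.52, adjusted p = 0.0044). Its UVB replicate 3 stood well above the other UVB libraries, and without that library the log2 fold change was −1.21 and the adjusted p 0.090.

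Falls were also seen at higher levels in genes outside the naming rule, chosen after their values were seen. LINC00862 went from 15.4 ± 0.854 to 5.05 ± 1.06 CPM (log2 fold change −1.61 ± 0.15, adjusted p = 8.7e-09). LINC02984 went from 16.7 ± 1.60 to 5.60 ± 1.03 CPM (−1.58 ± 0.15, adjusted p = 7.3e-09). LINC00595 went from 4.14 ± 0.186 to 1.45 ± 0.344 CPM (−1.51 ± 0.24, adjusted p = 1.3e-05). These 3 genes span 147, 30.8 and 372 kb, and in each the groups did not overlap. In the same order the genes overlap 3, 1 and 6 other gene rows, so their counts are uncertain. In the reverse complement, 16.7% of the 50-base words of LINC02984 occur in other genes.

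LINC00324 showed the largest rise among genes with at least 0.5 CPM. The gene (chr17:8220624-8224043, minus strand, a lincRNA that overlaps no other row) had 26, 21 and 21 counts in the UVB libraries and 95, 89 and 70 with sauchinone. Every sauchinone library had more counts than the 3 UVB libraries summed. Its level rose from 1.05 ± 0.176 to 3.71 ± 0.658 CPM, a log2 fold change of 1.82 ± 0.26 (adjusted p = 4.1e-06, edgeR) or 3.53-fold, and none of its 50-base words occurs in another gene.

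LINC00622, LINC00707 and LINC01391 rose from levels under 1 CPM. LINC00622 (chr1:119597702-119599271) had 12, 5 and 25 counts against 39, 57 and 49 (log2 fold change 1.71 ± 0.39, adjusted p = 0.00087). LINC00707 (chr10:6779549-6879450) had 10, 10 and 8 counts against 25, 34 and 28 (1.54 ± 0.39, adjusted p = 0.0021), and 15.3% of its words occur in another gene. LINC01391 (chr3:138935189-138944020) had 10, 20 and 13 counts against 41, 23 and 30 (1.05 ± 0.38, adjusted p = 0.026). The highest UVB library of LINC01391 was close to the lowest sauchinone library, and its call did not hold with DESeq2 (adjusted p = 0.085), with the span trend removed (adjusted p = 0.071) or without UVB replicate 1 or 3 or UVB + sauchinone replicate 1 or 3 (adjusted p = 0.050 to 0.16).

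LINC00511 (chr17:72290091-72640472), an RNA much studied in carcinomas, rose although its gene spans 350 kb. It had 34, 26 and 41 counts against 76, 84 and 78, a change from 1.55 ± 0.312 to 3.47 ± 0.146 CPM (log2 fold change 1.16 ± 0.24, adjusted p = 0.00032). The sauchinone libraries were close together and all above the UVB libraries. Long genes were mostly lower, and with that trend removed its log2 fold change was 2.07. LINC02693 (chr17:21428263-21574517), which GENCODE 29 listed as protein-coding, was the LINC gene with the most counts and had 29.3, 28.2 and 30.7 CPM against 55.8, 56.8 and 53.8 CPM. Its replicates differed little, and it rose 1.89-fold (log2 fold change 0.92 ± 0.09, adjusted p = 1.4e-08).

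LINC01679 (chr21:43358147-43362349) had 30, 44 and 33 counts against 69, 87 and 78 (log2 fold change 1.05 ± 0.24, adjusted p = 0.00085). LINC02535 (chr6:85387219-85390186) had 71, 57 and 52 counts against 83, 109 and 108 (0.65 ± 0.21, adjusted p = 0.012). The highest UVB library of LINC02535 came close to its lowest sauchinone library, and the call did not hold with the span trend removed (adjusted p = 0.092) or without UVB replicate 3 (adjusted p = 0.054).

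**Figure D3:**
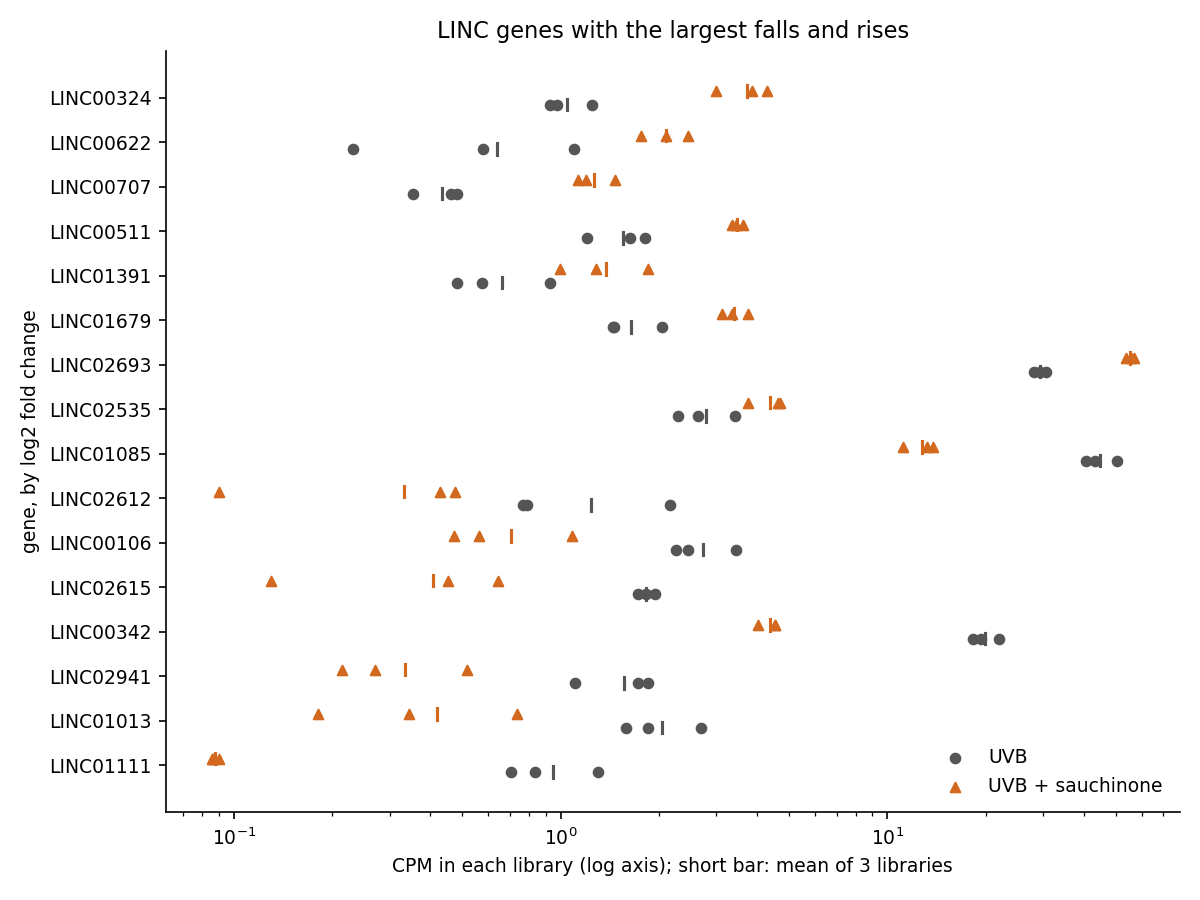
Circles (UVB) and triangles (UVB + sauchinone) give the CPM of each library on a log axis for the 8 LINC genes with the largest rises and the 8 with the largest falls, and short bars give the mean of 3 libraries. In each row the circles and triangles do not overlap, which the naming rule required, and LINC01111 has its 3 sauchinone libraries near 0.0875 CPM.

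Of the 6 LINC genes with the highest FPKM, 3 fell, 2 rose and 1 did not pass. Over all genes tested, 24.9% were lower and 24.7% higher, and at 10 CPM or more 29.2% and 31.0%. Beside LINC01085, LINC02454 (chr12:65589111-65614169) had 8.21, 7.20 and 8.45 FPKM against 5.57, 4.59 and 5.28 FPKM (log2 fold change −0.67 ± 0.11, adjusted p = 2.6e-05). LINC00968 (chr8:56494309-56559823) had 7.29, 7.21 and 8.22 FPKM against 5.38, 5.00 and 5.64 FPKM (−0.55 ± 0.10, adjusted p = 5.1e-05). In both, each sauchinone library lay below each UVB library. LINC00968 overlaps 2 other rows with at least 60 counts and LINC02454 overlaps 1, so their counts are uncertain. LINC00205 (chr21:45288035-45297806) had 4.57, 3.82 and 4.37 FPKM against 6.32, 6.30 and 6.35 FPKM (0.53 ± 0.09, adjusted p = 5.0e-05), with sauchinone libraries that were nearly equal. LINC00294 (chr11:33076149-33079454) had 5.74, 4.99 and 5.99 FPKM against 8.08, 7.20 and 7.29 FPKM (0.39 ± 0.11, adjusted p = 0.0043). LINC00294 overlaps the protein-coding genes CSTF3, on the other strand, and TCP11L1, on its own strand. In the reverse complement, 19.4% of its words occur in other genes, most often in PIGCP1, so its counts are uncertain. With the span trend removed its adjusted p was 0.23. LINC00674 (chr17:68101871-68161227) had 8.79, 7.62 and 9.26 FPKM against 8.91, 8.12 and 8.92 FPKM, and these overlapped (log2 fold change −0.03 ± 0.11, adjusted p = 0.84). This gene overlaps 6 other rows, 4 of them with at least 60 counts.

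Of the 26 LINC genes at 10 CPM or more, where the counts were highest and the errors smallest, 9 were lower and 7 higher, against 29.2% and 31.0% of all genes at that level. Those lower and not yet named were LINC01278, LINC00472 and LINC00886, and those higher were LINC00938, LINC00665 and LINC00680, beside LINC00963, which is described with the listed RNAs. All but LINC00963 were chosen after their values were seen. LINC01278 had 17.1, 18.0 and 18.3 CPM against 11.8, 9.98 and 12.6 CPM (log2 fold change −0.64 ± 0.12, adjusted p = 0.00013), and it overlaps the protein-coding gene SPIN4 on its own strand, which was higher (0.89 ± 0.12, adjusted p = 2.5e-06), so its counts are uncertain. LINC00472 had 19.9, 15.9 and 22.2 CPM against 12.3, 12.6 and 14.0 CPM (−0.58 ± 0.13, adjusted p = 0.00060). LINC00886 went from 12.7 ± 0.980 to 8.65 ± 1.01 CPM (−0.55 ± 0.13, adjusted p = 0.0016). In these genes no sauchinone library reached a UVB library. LINC00472 overlaps 4 other rows on its own strand and LINC00886 overlaps 1, so their counts are uncertain too. LINC00938 had 10.3, 9.45 and 11.7 CPM against 15.8, 17.8 and 15.2 CPM (0.63 ± 0.13, adjusted p = 0.00021), a rise that left the groups well apart. LINC00680 had 10.2, 8.52 and 8.56 CPM against 12.2, 11.1 and 12.7 CPM (0.41 ± 0.13, adjusted p = 0.014), and 15.5% of its words occur in another gene. LINC00665 had 18.1, 14.1 and 16.7 CPM against 19.7, 20.5 and 21.6 CPM (0.34 ± 0.11, adjusted p = 0.017). The changes of these 3 higher genes were under 2-fold and their groups did not overlap.

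Some LINC RNAs are known from tumours or from stress and fibroblast studies, and 10 of them were looked up whatever their values. Of the 5 that met the count minimum, LINC00511 and LINC00963 were higher, LINC01503 was lower, and LINC01133 and LINC00662 did not pass. LINC00963 (chr9:129476946-129513687) had 23.3, 22.3 and 21.6 CPM against 26.6, 26.0 and 29.3 CPM (log2 fold change 0.28 ± 0.10, adjusted p = 0.021), a small shift that did not pass without UVB + sauchinone replicate 3 (adjusted p = 0.11) or without a filter on low counts (adjusted p = 0.053). LINC01503 (chr9:129332300-129359549), known from squamous cell carcinoma, had 21, 17 and 34 counts against 11, 10 and 13 (−1.15 ± 0.40, adjusted p = 0.022). Its call did not hold with DESeq2 (adjusted p = 0.086) or without UVB replicate 3 or UVB + sauchinone replicate 1 or 2 (adjusted p = 0.059 to 0.16). LINC01133 (chr1:159958035-159984750) had 7.85, 8.29 and 9.09 CPM against 5.79, 7.69 and 7.24 CPM. The groups did not overlap but the test did not pass (−0.28 ± 0.15, adjusted p = 0.13), while with the span trend removed the log2 fold change was −0.37 and the adjusted p 0.046. LINC00662 (chr19:27681072-27794005) had 15.2, 13.2 and 14.8 CPM against 12.6, 14.4 and 12.7 CPM and did not pass (−0.12 ± 0.12, adjusted p = 0.41). LINC01614, LINC00941 and LINC00520 had 3, 0 and 17 counts over all libraries, and LINC00473 was not analysed here. LINC01021 is an older symbol of PURPL in the RefSeq table, and PURPL was lower (−0.99 ± 0.13, adjusted p = 2.1e-06).

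The promoters of 4 LINC genes that changed are shown because they belong to large or well measured changes and differ in base composition and motifs. Each is the RefSeq sequence (GRCh38.p14) from 250 bases before to 50 after the gene's start, which lies within 17 bases of the deposited start. Capitals mark the searched motifs on either strand: AP-1 (TGANTCA), cyclic AMP response element or CRE (TGACGTCA) and its shorter core (TGACG), antioxidant response element (TGACNNNGC), E-box (CACGTG), the SP1 site (GGGCGG), the TATA box (TATAAA) and the CArG box. A CRE core lies within each full CRE and can overlap an antioxidant response element. The LINC00324 promoter is at chr17:8223994-8224293 (minus strand), LINC01679 at chr21:43362300-43362599 (minus), LINC00205 at chr21:45287802-45288101 (plus) and LINC01085 at chr4:14111718-14112017 (plus).
LINC00324: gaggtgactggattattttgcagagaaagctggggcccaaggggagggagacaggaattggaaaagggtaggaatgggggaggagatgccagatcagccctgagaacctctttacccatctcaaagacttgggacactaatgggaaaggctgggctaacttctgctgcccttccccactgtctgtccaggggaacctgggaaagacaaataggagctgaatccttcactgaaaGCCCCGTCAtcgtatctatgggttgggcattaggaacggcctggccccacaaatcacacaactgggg
LINC01679: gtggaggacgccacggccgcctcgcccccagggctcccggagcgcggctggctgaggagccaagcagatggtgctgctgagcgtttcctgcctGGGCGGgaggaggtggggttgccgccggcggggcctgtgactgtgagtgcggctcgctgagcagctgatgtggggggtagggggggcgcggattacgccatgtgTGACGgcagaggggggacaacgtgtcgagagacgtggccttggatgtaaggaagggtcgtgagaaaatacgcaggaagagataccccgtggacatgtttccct
LINC00205: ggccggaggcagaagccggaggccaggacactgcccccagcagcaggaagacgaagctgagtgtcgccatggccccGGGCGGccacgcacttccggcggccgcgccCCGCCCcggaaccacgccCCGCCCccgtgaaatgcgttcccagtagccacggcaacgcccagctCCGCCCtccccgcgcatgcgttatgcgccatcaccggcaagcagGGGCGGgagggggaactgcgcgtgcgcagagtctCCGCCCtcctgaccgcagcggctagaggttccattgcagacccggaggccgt
LINC01085: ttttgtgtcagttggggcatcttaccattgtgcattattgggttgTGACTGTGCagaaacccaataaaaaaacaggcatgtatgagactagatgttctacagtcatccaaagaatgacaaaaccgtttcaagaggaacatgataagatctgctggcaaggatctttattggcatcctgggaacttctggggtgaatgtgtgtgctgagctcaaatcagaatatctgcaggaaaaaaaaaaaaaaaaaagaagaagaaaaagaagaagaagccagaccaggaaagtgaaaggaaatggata

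LINC00324, the gene with the large rise, has an antioxidant response element match from 17 to 9 bases before its start, and a CRE core within it from 13 to 9 bases before. LINC01679 has a CRE core from 53 to 49 bases before its start and an SP1 match. The start region of LINC00205, shared with POFUT2 on the other strand, is rich in G and C (72.3%) and holds 6 SP1 matches. LINC01085, which fell, has 39.0% G and C, 1 CpG, and an antioxidant response element match from 205 to 197 bases before the start.

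RefSeq promoters matched 134 of the 198 LINC genes by symbol, and for 82 the RefSeq start lay within 250 bases of the deposited start. Of the 8 motifs searched, the antioxidant response element had the widest gap between higher and lower genes among all those matched, and it is split by direction here after those values were seen. It was in 19.4% of LINC promoters, in 8 of 17 that were higher (47.1%) and 2 of 20 that were lower (10.0%), where it was in 13.6% of all 27305 promoters of this length. Restricted to genes with a start within 250 bases, it was in 6 of 13 higher (46.2%) and 2 of 9 lower (22.2%). The CRE core was in 5 of 17 higher (29.4%) and 2 of 20 lower (10.0%), or 5 of 13 (38.5%) and 0 of 9 with a start within 250 bases, against 6828 of all 27305 promoters. AP-1 matches were in 3 of 17 higher and 3 of 20 lower genes. They were in 14.2% of LINC promoters and 7.76% of all, and full CRE matches in 3.73% and 1.98%. SP1 matches were as common in LINC promoters (44.8%) as in all (44.6%). The median share of G and C was 53.3% with 12 CpG in the higher genes and 48.2% with 3 CpG in the lower, against 58.3% with 14 CpG in all promoters. With a start within 250 bases, it was 53.3% with 12 CpG in 13 higher genes and 51.3% with 5 CpG in 9 lower genes. These shares describe letters in short windows of few genes, and no difference between them was tested.

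The name intergenic held for a minority of these genes in the strict sense. Of the 198, 72 overlapped no other row of the table, 112 overlapped a row on the opposite strand and 57 a row on the same strand. Overlap with a protein-coding gene was seen for 27, 16 of them on the opposite strand. GENCODE 29 listed 158 as lincRNA, 14 as processed transcripts, 9 as antisense and 2, LINC02693 and LINC00672, as protein-coding. Since whether counting used strand is not given in the sources used here, counts of overlapping genes are uncertain. Of 197 genes with GENCODE 29 transcripts, 25 shared at least 10% of their 50-base words with other genes in the same orientation. Both free of overlap and under that sharing on either strand were 10 of the 20 higher and 14 of the 43 lower genes, against 69 of all 197. LINC00324, LINC00622, LINC01679 and LINC01013 were among those called.

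The changes of LINC genes and of their nearest protein-coding genes were hardly related across all pairs. Both genes were tested in 163 pairs, and in 54 of these the LINC gene passed. In 32 pairs both passed: 17 were lower together, 6 higher together, 7 had the LINC gene lower and the neighbour higher, and 2 the reverse. That is 23 of 32 in the same direction, and within 50 kb it was 12 of 20. In these pairs most LINC genes and most neighbours were lower, which by itself puts many pairs in the same direction. Whether more pairs shared a direction than that gives was not tested. Across the 163 pairs the Spearman correlation of the log2 fold changes was 0.10 and Pearson's r 0.14, given as a description since all pairs come from the same libraries and some share a neighbour. Of the 153 tested neighbours, 38 were higher and 51 lower, where 27.5% of all tested protein-coding genes were higher and 27.3% lower.

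Some neighbouring pairs rose together. LINC00205 starts 137 bases from POFUT2, which encodes a protein O-fucosyltransferase, on the opposite strand. POFUT2 had 76.8, 76.2 and 69.7 CPM against 94.6, 98.7 and 93.4 CPM (log2 fold change 0.36 ± 0.08, adjusted p = 0.00059), so both genes were higher in every sauchinone library. LINC00324 lies 772 bases from CTC1, a subunit of the telomere-capping CST complex. CTC1 had 7.65, 8.57 and 8.61 CPM against 13.5, 11.7 and 12.2 CPM (0.59 ± 0.13, adjusted p = 0.00076), a smaller rise than that of LINC00324 on the log2 scale. ZNF697, 20.1 kb from LINC00622, had 30.6, 30.7 and 30.9 CPM against 48.6, 51.4 and 51.5 CPM (0.72 ± 0.09, adjusted p = 4.6e-07). LINC01391 lies 204 bases from FOXL2, a forkhead transcription factor gene, which had 5.73, 7.5 and 5.3 CPM against 8.95, 10.5 and 8.01 CPM (0.57 ± 0.16, adjusted p = 0.0057), with no overlap. FOXL2NB, whose start lies 3197 bases from that of LINC01391 on the other strand, was lower (−0.92 ± 0.11, adjusted p = 6.1e-07). Near LINC01679, at 52.1 kb, SIK1, a salt-inducible kinase gene, had 1, 0 and 2 counts against 41, 29 and 19 (adjusted p = 4.2e-06). Its UVB libraries were at or under the floor, and counts can be divided with its near copy SIK1B.

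Other neighbouring pairs fell together. ANKRD36C, 1.92 kb from LINC00342, had 7.85, 7.78 and 9.97 CPM against 2.94, 3.54 and 2.87 CPM (−1.45 ± 0.18, adjusted p = 4.2e-07), and it belongs to a family of similar copies. MSRB3, a methionine sulfoxide reductase gene 97.7 kb from LINC02454, had 169, 160 and 174 CPM against 76.5, 68.7 and 85.3 CPM (−1.13 ± 0.08, adjusted p = 2.7e-10). Both neighbours fell more than 2-fold without overlap between the groups. Farther off, ZFHX4 (157 kb from LINC01111; −0.69 ± 0.09), MOXD1 (127 kb from LINC01013; −0.50 ± 0.08) and CITED2, a transcriptional coregulator gene (602 kb from LINC02941; −0.48 ± 0.07), all passed with adjusted p from 7.7e-07 to 1.7e-05. LINC01615, chosen after its values were seen, went from 10.8 ± 0.706 to 6.89 ± 1.69 CPM (−0.65 ± 0.16, adjusted p = 0.0018). Its neighbour THBS2, a matricellular protein gene at 52.8 kb, had 81.5, 76.8 and 80.8 CPM against 36.6, 44.8 and 44.7 CPM (−0.92 ± 0.09, adjusted p = 2.2e-08).

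Opposite pairs were also found close by. LINC00511 rose while SLC39A11, a zinc transporter gene 5.48 kb away on the same strand, had 12.4, 12.6 and 12.8 CPM against 6.74, 7.91 and 6.94 CPM (−0.81 ± 0.13, adjusted p = 2.6e-05). LINC00106 fell while ASMTL, 3.74 kb away, had 6.21, 8.66 and 5.74 CPM against 11.3, 10.6 and 10.1 CPM (0.63 ± 0.16, adjusted p = 0.0017). LINC01135, named after its values were seen, starts 336 bases from JUN, which encodes a subunit of the AP-1 transcription factor, on the opposite strand. JUN had 110, 117 and 114 CPM against 163, 163 and 156 CPM (0.50 ± 0.07, adjusted p = 6.4e-06), while LINC01135 had 22, 24 and 33 counts against 11, 11 and 12 (−1.28 ± 0.38, adjusted p = 0.0075). All 3 sauchinone libraries were thus higher for JUN and lower for the RNA that starts beside it. On the same side of JUN, LINC01358 had 43, 49 and 43 counts against 6, 18 and 17 (−1.79 ± 0.36, adjusted p = 0.00026). LINC02777 (chr1:58882868-58931897), on the opposite strand, overlaps the end of LINC01135 (chr1:58784384-58901109), so the counts of both are uncertain. It had 14, 9 and 15 counts against 11, 13 and 8 and did not pass (adjusted p = 0.59). LINC01291 and LINC01293, adjacent on chromosome 2, both fell (−0.77 ± 0.16 and −1.39 ± 0.21), while POLE4, a subunit gene of DNA polymerase epsilon and the nearest protein-coding gene of both, rose (0.47 ± 0.11, adjusted p = 0.00092).

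**Figure D4:**
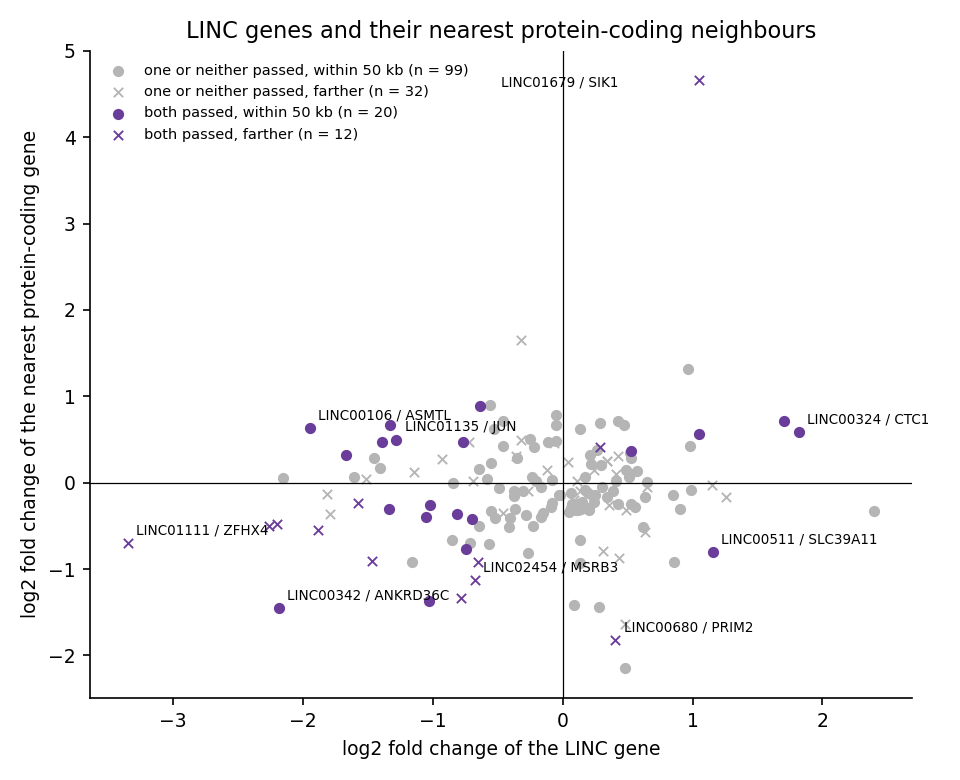
Each symbol is 1 of the 163 pairs, with the log2 fold change of the LINC gene on the x axis and that of its nearest protein-coding gene on the y axis. Purple symbols are the 32 pairs in which both passed (circles within 50 kb, crosses farther), 17 of them in the lower left and 6 in the upper right, and the fitted value of SIK1 rests on 3 UVB counts.

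Long noncoding RNAs with other names gave a point of comparison. Among 457 antisense genes with the same count minimum, 443 were tested. Of these 121 (27.3%) passed, 80 lower (18.1%) and 41 higher (9.26%), against 24.9% and 24.7% of all genes. The tested antisense genes had a median log2 fold change of −0.10. They had a median level of 1.68 CPM, like that of the LINC genes, and the difference between the 2 sets was not tested. From a list of 43 long noncoding RNAs with names of their own, 33 were tested. Of these 16 (48.5%) were lower, 7 (21.2%) higher and 10 did not pass, against 24.9% lower and 24.7% higher over all genes. The median level of the 33 RNAs, 16.8 CPM, was above that of the LINC genes. Of all genes at 10 CPM or more, 29.2% were lower and 31.0% higher, and the difference was not tested. CARMN, an RNA of the smooth muscle and heart lineages, went from 9.65 ± 1.34 to 2.17 ± 0.252 CPM (log2 fold change −2.15 ± 0.18, adjusted p = 1.9e-09). PURPL, a p53 target, went from 51.0 ± 12.1 to 25.8 ± 4.07 CPM (−0.99 ± 0.13, adjusted p = 2.1e-06). KCNQ1OT1, an imprinted antisense RNA, went from 10.9 ± 1.45 to 22.7 ± 5.91 CPM (1.06 ± 0.15, adjusted p = 5.9e-06). NEAT1, the scaffold of paraspeckles, had 271 ± 34.2 and 286 ± 14.7 CPM and did not pass (0.08 ± 0.08, adjusted p = 0.46). These examples were chosen after their values were seen.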

How the data were processed

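RNA was sequenced in 6 libraries of HFF cells, after enrichment by poly(A) selection or removal of ribosomal RNA (the labels' protocols do not say which). The authors deposited raw counts per gene and FPKM values. The submitters' processing notes name GRCh38 as the build. Aligner, counter and annotation release: not given in the sources used here. The deposited FPKM can be rebuilt from count, exonic size and library total (100% of values within 0.006) and served only for levels per length.

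The test was edgeR 4.0.16 in R 4.3.3 on the counts (filterByExpr, TMM, two-sided quasi-likelihood test, Benjamini-Hochberg adjustment over 15704 genes, threshold 0.05, no covariate). A positive log2 fold change means a higher level with sauchinone. The test was also run on simulated counts. Few genes were changed there, whereas 49.6% of genes passed here, so that run does not check the error rates of this comparison.

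Gene types and shared 50-base words came from GENCODE 29, which matched 94.3% of genes by ID. Positions are those of the deposited table. Promoters came from RefSeq (GRCh38.p14).

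The LINC genes and all lists were chosen with earlier results of these data known. Named genes were the 8 largest rises and 8 largest falls that passed with a mean of at least 0.5 CPM and no overlap, the 6 highest by FPKM, 10 listed symbols, and neighbours. Alternatives were DESeq2 1.42.0, limma-voom (limma 3.58.1), other scalings, filters and gene subsets, a span correction, a replicate block and left-out libraries. Same-numbered libraries did not deviate together (correlations 0.0072, −0.078 and −0.031). With 3 libraries per group this cannot exclude pairing, and the labels do not say that the numbers pair libraries.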

Additional observations from a re-analysis of the deposited data

How the results depend on the processing

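The number of LINC genes that passed stayed within 1.5 times of 63 under each other test, scaling, filter and left-out library, from 50 with DESeq2 (all 50 also among the 63, against 36.6% of all genes it gave an adjusted p) to 67 with the span trend removed (53 shared). Leaving out 1 library gave 52 to 61 in all, 13 to 19 higher (13 without UVB + sauchinone replicate 3), 37 to 42 lower, and a median log2 fold change of −0.11 to −0.061. With the replicate block 58 passed (18 higher, 40 lower), against 46.4% of all genes. Restricted to genes that overlap no other gene, 25 of 69 passed (15 lower, 10 higher) and the median turned from −0.074 to 0.043. Restricted to a summed count of at least 300, 36 of 75 (48.0%) passed, 21 lower and 15 higher. Over all genes tested, with all levels pooled, 49.6% passed. By level that share ran from 21.4% under 1 CPM to 60.1% at 10 CPM or more. It was 54.5% from 5 to 10 CPM, where the median level of this LINC subset lay (5.76 CPM). Both subsets hold fewer genes than the 192 tested. The median was −0.045 with limma-voom and −0.10 with at least 1 CPM in 3 libraries, and the cause was not tested. Of 346 values of the 25 named genes under alternatives, 325 kept direction and call, 16 lost the call, 1 gained it and 4 changed sign. Those 4 belong to genes that did not pass: LINC00662 (0.14 with the span trend removed) and LINC00674 (0.037 with the span trend removed, 0.0041 without UVB + sauchinone replicate 2, 0.029 without UVB replicate 3). Depth limits all of this, since 68 of the 192 tested genes were under 1 CPM.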

Other observations

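Of the 2036 LINC rows under the count minimum, 1295 had no count in any library and 741 had at least 1. Their counts summed to 4204 in the UVB group and 3781 with sauchinone, and 76 of them reached 30 counts in all. At the edge of the minimum, LINC01711 and LINC02976 had 60 summed counts and LINC00216 had 61, while LINC02298, LINC01703 and LINC02995 had 59, 58 and 57. The 6 LINC genes that met the minimum but had too few counts per library for the test were LINC00216, LINC01151, LINC01301, LINC01426, LINC01711 and LINC02976. Counts of LINC01301 were 7, 21 and 18 in the UVB libraries and 5, 6 and 5 with sauchinone.

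A few rows under the minimum, chosen after their values were seen and so given with no test, had counts in mostly 1 group. LINC02519 had 6, 11 and 27 counts in the UVB libraries and 0 in each sauchinone library. LINC01239 had 3, 12 and 14 against 1, 0 and 0. LINC01132 had 0, 0 and 1 against 13, 2 and 8, and LINC02574 had 4, 2 and 3 against 23, 8 and 12. LINC02029, which met the minimum but lay under 0.5 CPM, had the highest fitted log2 fold change of all LINC genes tested (2.40 ± 0.64, adjusted p = 0.0033, edgeR), with 7, 2 and 0 counts against 19, 19 and 14. Of its 50-base words, 71.1% occur in the reverse complement in other genes, most often in LINC00880. The counts of LINC00880 were 0, 1 and 1 against 12, 6 and 1. Without knowledge of strand, reads from the shared words of these genes cannot be told apart.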
